A study of Mus musculus with 15 samples.

Results

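This account compares the liver of mice that received ischaemic preconditioning before ischaemia and reperfusion (IPC) with the liver of sham-operated mice. It uses the 10 arrays that the titles place in these groups, 5 a side, of 15 arrays in all. All animals were of the strain C57BL/6, and total liver RNA was hybridised to one-colour arrays for coding and long non-coding transcripts. In the IPC group the vessels were clamped for 10 min and reopened for 10 min, and then 70% of the liver was ischaemic for 75 min and reperfused for 2 h. Sham mice had the abdomen opened and the hilum handled, with no vessel closed. All groups were operated on under sodium pentobarbital, the clip in IPC and I/R lay on the left lateral and median lobes, and the lobe sampled is not given in the labels used here. The remaining 5 arrays come from mice with the same ischaemia and reperfusion and no preconditioning (I/R). In the fits they serve only to estimate the spread and the slide term, and their levels are given beside some results. The design text speaks of 18 mice, 6 in each group, and gives no age, and nothing ties an array to one mouse. The p-values therefore measure only how far these arrays scatter, and that scatter may be technical.

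Preconditioning is a short, harmless closure of the blood supply that raises the tolerance of an organ to a longer one. Ischaemia lowers oxygen and ATP in hepatocytes, and reperfusion brings oxygen radicals and inflammatory signals. Cells answer low oxygen partly through HIF, a transcription factor that binds a short DNA element with the core ACGTG. Tfrc, the receptor that takes up transferrin-bound iron, is a known HIF target, and its mRNA is also stabilised when iron is low. Actb encodes cytoplasmic beta-actin, and its transcription responds to serum response factor through CArG boxes.

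Only 15 of the probes carry a RefSeq accession, and these give the genes that can be named. The genes fall into iron uptake (Tfrc), the cytoskeleton (Actb, Tuba1b), protein folding (Hsp90ab1, Ppia), sugar and glycerol metabolism (Gapdh, Gk, G6pd2, Ldhal6b), gene expression (Rpl13a, Tbp, Nono) and reference genes of other pathways (Hprt, Gusb, B2m). None of the 33 markers of 9 liver and blood cell types is among them, so the labelled tissue could not be checked against its markers. Of 5 gene lists with 51 entries, 5 entries were measured: Tfrc for the hypoxia response and again for iron handling, Hsp90ab1 for heat shock, Actb for actin and serum response targets, and Gapdh for glycolysis.

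Levels are log2 signals above the 75th percentile of the array. IPC and sham lay on different slides, which the scan time in the file headers tells apart. Slide 1 held the 5 IPC arrays with I/R arrays 4 and 5, and slide 2 held all 5 of sham together with I/R arrays 1 to 3. Before scaling, the 75th percentile was 8.53 to 8.77 on the IPC arrays and 8.23 to 8.31 on the sham arrays (log2), and 55.0% to 59.6% of probes were well above background on IPC arrays against 51.3% to 53.5% on sham arrays. No spot was saturated. Each difference is therefore given without a slide term and with slide as a block, and the second value rests on how I/R arrays 4 and 5 differ from I/R arrays 1 to 3. That contrast also holds any difference among these livers and any effect of the row of the array on its slide. I/R arrays 4 and 5 lay in row 1 of slide 1, and I/R arrays 1 to 3 in row 2 of slide 2. IPC arrays 1 and 2 and sham arrays 1 to 4 lay in row 1, and the other IPC and sham arrays in row 2. A fit with row added is given among the alternatives. No slide held both groups, so there is no value within a slide.

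In IPC against sham 2 of the 15 genes rose (Tfrc and Actb), 6 fell and the other 7 did not pass (limma, adjusted p under 0.05 over all probes tested). Across all 34985 probes tested, 30.0% passed, 13.6% higher and 16.4% lower. The median difference of the 15 genes was -0.08 and that of all probes -0.01. Blocking on slide, 3 genes rose and 2 fell, against a background of 21.0% of probes, 11.0% higher and 9.96% lower. The genes that passed in the same direction in both fits were Tfrc and Actb, which rose, and Ppia and G6pd2, which fell. Of all probes, 13.1% did so, 7.47% higher and 5.63% lower. Groups did not overlap for 8 of the 15 genes, 2 of them above and 6 below sham, against 27.3% of probes, 11.5% above and 15.9% below. The background is unlike the named genes, whose median level was 4.57 against -0.52 for all probes. Each named gene also had 20 spots on an array. Among the 11662 brightest probes 39.5% passed without the block. The part of signal and spot number in these shares was not tested.

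Some of the 4 genes that passed in both fits carry a searched motif near their start, and those sequences are shown here because these genes were called both without and with the slide term. Promoters came from the RefSeq table of build GRCm38.p6, which held 3 of the 4 genes, Actb being the one not matched. The 250 bases before each start were searched on both strands for ACGTG, for the SP1 box GGGCGG, for the TATA box TATAAA and for the CArG box. Tfrc has 2 starts in the table. Of these the upstream one had no whole match in its window, the end of which cuts the ACGTG described next. Before the downstream one, ACGTG lay at -228 to -224 and GGGCGG at -35 to -30. The 30 bases around that ACGTG are at chr16:32608881-32608910 (plus strand), with the core in capitals. They span the upstream start, which falls inside the core.
Tfrc: cctcggtaggtgtACGTGcggaaggaagtg
The Ppia window is chr11:6415617-6415866 (plus strand), with the GGGCGG matches of either strand and the TATAAA match in capitals.
Ppia: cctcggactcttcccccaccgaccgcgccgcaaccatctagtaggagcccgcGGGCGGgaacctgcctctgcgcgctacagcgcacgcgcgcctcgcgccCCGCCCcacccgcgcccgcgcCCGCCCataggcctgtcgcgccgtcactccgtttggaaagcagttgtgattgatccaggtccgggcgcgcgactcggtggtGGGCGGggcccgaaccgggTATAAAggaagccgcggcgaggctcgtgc
Ppia had 4 matches of GGGCGG and 1 of TATAAA, at -29 to -24. The G6pd2 window had no match to any of the 4. Among 32851 windows of the same length, 16.6% held ACGTG, 32.7% GGGCGG, 12.4% TATAAA and 1.47% a CArG box. No motif overlapped another in the windows printed. A match describes letters only, and nothing here measured binding.

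Tfrc rose the most of the named genes. The IPC arrays stood at 4.89, 4.91, 4.80, 4.97 and 4.90, and the sham arrays at 4.18, 4.24, 4.31, 4.21 and 4.27. Every IPC array lay above every sham array. The means were 4.89 ± 0.0602 in IPC and 4.24 ± 0.0497 in sham (SD, n = 5 each), so IPC was higher by 0.65 ± 0.0501 (SE), or 1.57-fold (adjusted p = 5.41e-07). The blocked fit gave 0.78 ± 0.0753 (SE), 1.72-fold, with a 95% interval of 0.62 to 0.94 and an adjusted p of 3.58e-05. That value is the sum of 0.46, by which IPC exceeded the I/R arrays of slide 1, and 0.32, by which the I/R arrays of slide 2 exceeded sham. The I/R arrays ranged from 4.38 to 4.59, between the groups. In RNA from liver tissue, a change in the number of cells of a type and a change in RNA per cell cannot be told apart.

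**Figure D1:**
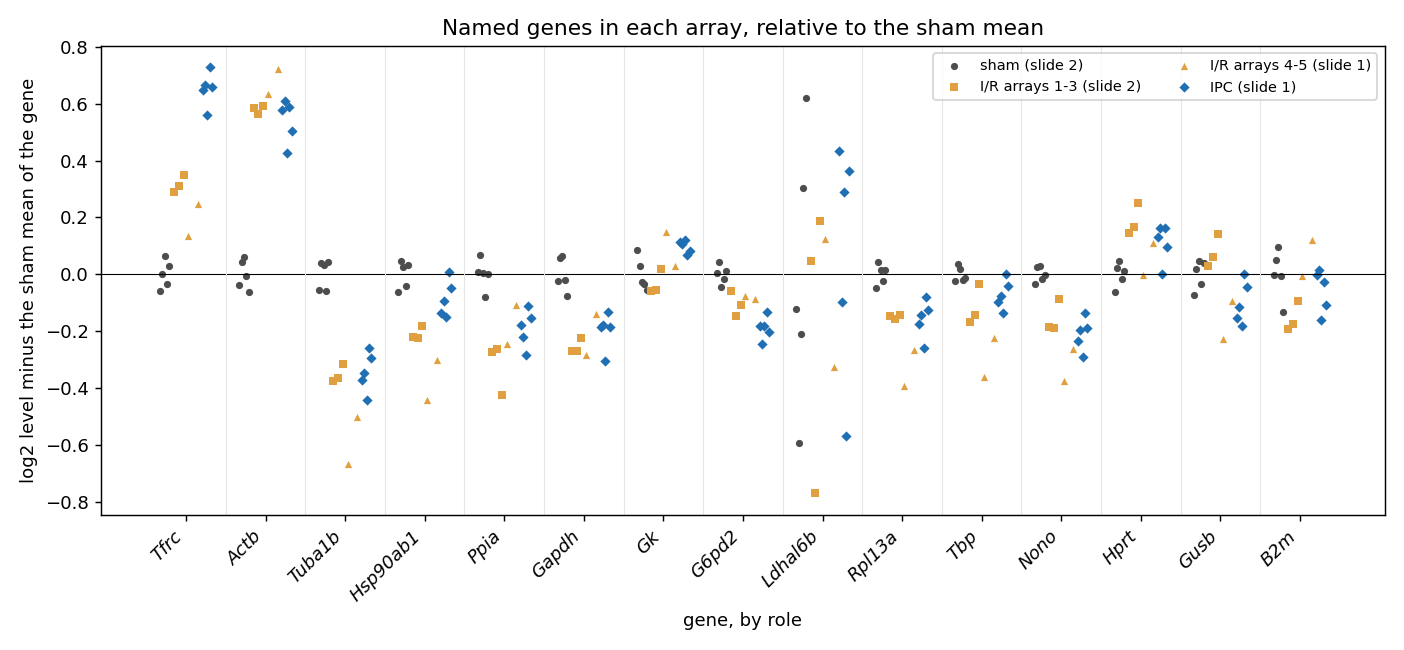
Level of each of the 15 named genes in every array, as log2 minus the sham mean of that gene (vertical axis), with genes along the horizontal axis in order of role. Points are single arrays, with shapes for sham, I/R on slide 2, I/R on slide 1 and IPC. The IPC arrays of Tfrc and Actb lie above all sham arrays, and those of Tuba1b below them, while the arrays of Ldhal6b are scattered in every group.

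The cytoskeletal genes moved in opposite directions. Actb was at 6.00, 6.03, 5.85, 6.01 and 5.93 in IPC and at 5.39, 5.47, 5.49, 5.42 and 5.36 in sham. All IPC arrays were the higher, and Actb rose by 0.54 ± 0.0497 (SE), or 1.46-fold (adjusted p = 2.59e-06). Blocking on slide gave 0.44 ± 0.0791 (SE), or 1.36-fold (adjusted p = 0.00216). Its I/R arrays, at 5.99 to 6.15, lay in and above the range of IPC. The blocked value is the sum of -0.14 for IPC minus I/R on slide 1 and 0.58 for I/R minus sham on slide 2.

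Tuba1b, an alpha-tubulin of microtubules, was at 5.85, 5.87, 5.78, 5.96 and 5.92 in IPC against 6.16, 6.26, 6.25, 6.16 and 6.26 in sham. The groups did not overlap. It fell by 0.34 on the log2 scale (SE 0.0652, adjusted p = 0.00119), to 5.88 ± 0.0710 from 6.22 ± 0.0527 (SD, n = 5 each). In the blocked fit the difference was -0.11, with a 95% interval of -0.29 to 0.07 and an adjusted p of 0.377, so that this call did not hold. I/R arrays 4 and 5 had a mean of 5.63 on slide 1 and I/R arrays 1 to 3 a mean of 5.87 on slide 2. Actb and Tuba1b belong to families with very similar members, and cross-hybridisation of the probes was not tested.

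Of the chaperone genes, Hsp90ab1, a cytosolic HSP90, did not pass. Its level was 5.65, 5.69, 5.64, 5.80 and 5.74 in IPC and 5.72, 5.83, 5.81, 5.75 and 5.82 in sham, and the groups overlapped. The difference was -0.08, with a 95% interval of -0.20 to 0.03 and an adjusted p of 0.286. Its sign turned with slide as a block, to 0.08 (interval -0.09 to 0.25, adjusted p = 0.509). Hsp90ab1 was lowest in I/R, at 5.35 to 5.60.

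Ppia, the prolyl isomerase cyclophilin A, was lower in IPC. The IPC arrays were at 8.54, 8.50, 8.43, 8.60 and 8.56 and the sham arrays at 8.72, 8.78, 8.72, 8.64 and 8.72. The highest IPC array lay just under the lowest sham array. Ppia fell by 0.19 (SE 0.0575, adjusted p = 0.0222), and the blocked difference was -0.33 (SE 0.0883, adjusted p = 0.0184). That difference is the sum of -0.013 for IPC minus I/R on slide 1 and -0.321 for I/R minus sham on slide 2. The I/R arrays ranged from 8.29 to 8.61. The call was lost under quantile normalization (-0.12, adjusted p = 0.154), under normexp background correction (-0.12, 0.164), with the percentile taken over probes above background on all arrays (-0.12, 0.113), without IPC array 3 (-0.17, 0.0576) and without sham array 2 (-0.17, 0.057). The blocked call was lost without I/R array 5 (-0.26, adjusted p = 0.105).

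Among the metabolic genes, Gapdh and G6pd2 fell, and Gk and Ldhal6b did not pass. Gapdh, which oxidises glyceraldehyde phosphate in glycolysis, was at 8.39, 8.39, 8.27, 8.44 and 8.38 in IPC and at 8.55, 8.63, 8.64, 8.55 and 8.49 in sham. The groups did not overlap, and Gapdh fell by 0.20 (SE 0.0482, adjusted p = 0.00654). Blocking on slide gave -0.24, of like size, with a wider 95% interval of -0.42 to -0.06 and an adjusted p of 0.0551. Quantile normalization also ended the call (-0.15, adjusted p = 0.104). The blocked difference is the sum of 0.0155 for IPC minus I/R on slide 1 and -0.2546 for I/R minus sham on slide 2. The I/R arrays of Gapdh ranged from 8.29 to 8.43. Gapdh and Ppia are known for processed pseudogenes, which a probe may share.

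The array holds control spots for both ends of Gapdh and of Pgk1, another glycolytic enzyme, 10 spots each. At the 3′ end Gapdh was at 7.29 ± 0.0694 in IPC and 7.54 ± 0.0858 in sham (SD, n = 5 each; exact permutation test, two-sided, adjusted p = 0.0119 over 6 tests). At the 5′ end it was at 6.71 ± 0.0433 in IPC and 6.62 ± 0.0520 in sham (exact permutation test, adjusted p = 0.0317). The ends thus moved in opposite directions, and the 3′ minus 5′ difference was 0.51 to 0.65 on the IPC arrays and 0.80 to 0.97 on the sham arrays. It was 0.69 in the mean of the I/R arrays of slide 1 and 0.42 in that of slide 2.

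For Pgk1 the 3′ spots were at 7.44 in IPC and 7.52 in sham (exact permutation test, adjusted p = 0.0286), and the 5′ spots at -0.42 and -0.07 (exact permutation test, adjusted p = 0.0119). Its 3′ minus 5′ difference was larger in IPC, 7.79 to 7.95 against 7.51 to 7.65 in sham, the opposite order to Gapdh. In I/R it was 7.91 on slide 1 and 7.62 on slide 2. With that slide difference of I/R taken out, IPC minus sham was -0.03 for Pgk1 in place of 0.27, and -0.60 for Gapdh in place of -0.34. For the ends alone, the same step gave -0.46 in place of -0.25 for Gapdh 3′ and 0.14 in place of 0.08 for Gapdh 5′. For Pgk1 it gave -0.10 in place of -0.08 at the 3′ end and -0.07 in place of -0.35 at the 5′ end. The permutation tests held no slide term, so their p-values cover group and slide together. The smallest p that these tests allow is 0.00794 before adjustment. The part of RNA quality or slide in the fall of Gapdh was not tested.

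**Figure D2:**
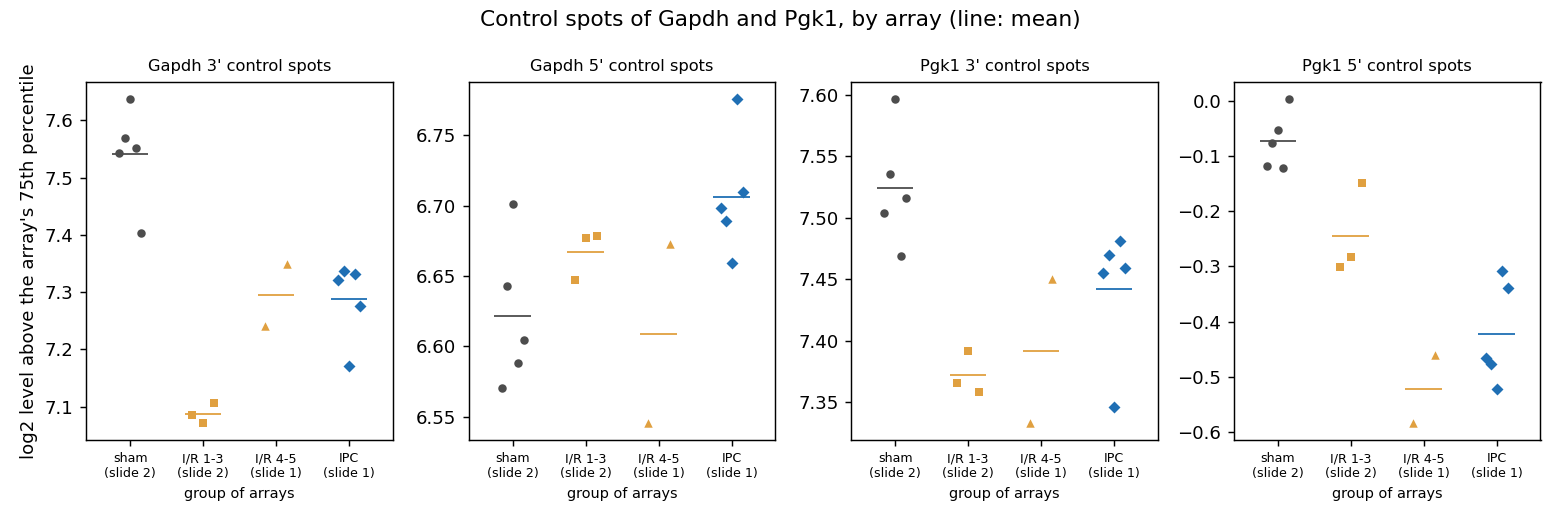
Level of the control spots for the 3′ and 5′ ends of Gapdh and Pgk1 in each array (vertical axes, log2 above the 75th percentile, each with its own range), by group and slide (horizontal axis). Points are arrays and lines are means. Gapdh 3′ spots lie lower in IPC than in sham and 5′ spots mostly higher, while Pgk1 spots lie lower in IPC on average at both ends.

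G6pd2, an autosomal copy of glucose-6-phosphate dehydrogenase known from testis, was at -1.08, -1.15, -1.08, -1.03 and -1.10 in IPC and at -0.90, -0.86, -0.94, -0.92 and -0.89 in sham. The groups were apart by little. G6pd2 fell by 0.19 (SE 0.0383, adjusted p = 0.00194), and the blocked difference was -0.21 (SE 0.0630, adjusted p = 0.0318). That difference is the sum of -0.1056 for IPC minus I/R on slide 1 and -0.1056 for I/R minus sham on slide 2. The I/R arrays ranged from -1.05 to -0.96. The blocked call was lost without any one of I/R arrays 2 to 5, with adjusted p of 0.0508 to 0.113. Signal of the X-linked copy in this probe was not tested.

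Gk, glycerol kinase, had a difference of 0.10 (adjusted p = 0.139), and -0.02 with slide as a block, with an interval of -0.18 to 0.13. It passed with the percentile over probes above background on all arrays (0.17, adjusted p = 0.0307). Its IPC arrays ranged from 0.17 to 0.22 and its sham arrays from 0.05 to 0.19. Ldhal6b, a lactate dehydrogenase-like gene known from testis, ranged from -1.28 to -0.28 in IPC and from -1.31 to -0.09 in sham. The interval of its difference, -0.47 to 0.63, was the widest of the named genes. Its 20 spots on an array had a median SD of 1.04 log2 units, against 0.0355 to 0.126 for the other 14 probes.

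In the gene expression group, Rpl13a and Nono fell and Tbp did not pass, and no call held with slide as a block. Rpl13a, a protein of the large ribosomal subunit, ranged from 3.96 to 4.14 in IPC and from 4.17 to 4.27 in sham. It fell by 0.16 (adjusted p = 0.0451), and with slide as a block the difference was 0.02 (interval -0.14 to 0.19, adjusted p = 0.853). Leaving out any 1 of the IPC or sham arrays ended that call in 9 of 10 cases, sparing only the omission of IPC array 4, with adjusted p up to 0.110. Nono, a nuclear RNA-binding protein of paraspeckles, ranged from 3.30 to 3.45 in IPC and from 3.56 to 3.62 in sham.

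Nono fell by 0.21 (adjusted p = 0.00802), against -0.04 with slide as a block (interval -0.20 to 0.11, adjusted p = 0.703). Tbp, the TATA-binding protein, differed by -0.07 (adjusted p = 0.385), and by 0.11 with the block (adjusted p = 0.341). Its arrays lay at 0.82 to 0.96 in IPC and 0.94 to 1.00 in sham, an overlap at 1 end only. For Rpl13a, Tbp and Nono the I/R arrays of slide 1 lay below those of slide 2, by 0.17 to 0.18.

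None of the reference genes Hprt, Gusb and B2m passed without a slide term. Hprt, which salvages purines, ranged from 6.21 to 6.37 in IPC and from 6.14 to 6.26 in sham, with a difference of 0.11 (adjusted p = 0.129). Hprt rose with slide as a block, by 0.24 ± 0.0788 (SE; adjusted p = 0.0448), and it also passed under quantile normalization (0.20, 0.00632), under normexp background correction (0.17, 0.00624), with the percentile over probes above background on all arrays (0.18, 0.00323) and with array weights (0.12, 0.0337). The blocked call of Hprt was lost without any one of I/R arrays 1 to 4 (0.19 to 0.26, adjusted p of 0.0513 to 0.225). Its blocked difference is the sum of 0.0566 for IPC minus I/R on slide 1 and 0.1866 for I/R minus sham on slide 2. Gusb, a lysosomal beta-glucuronidase, differed by -0.10 (adjusted p = 0.301), and by 0.14 with the block (0.268). B2m, the small invariant subunit of class I MHC, differed by -0.06 (adjusted p = 0.579), and by -0.27 with the block (0.0633), whose interval of -0.47 to -0.06 is not adjusted for the number of probes.

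**Figure D3:**
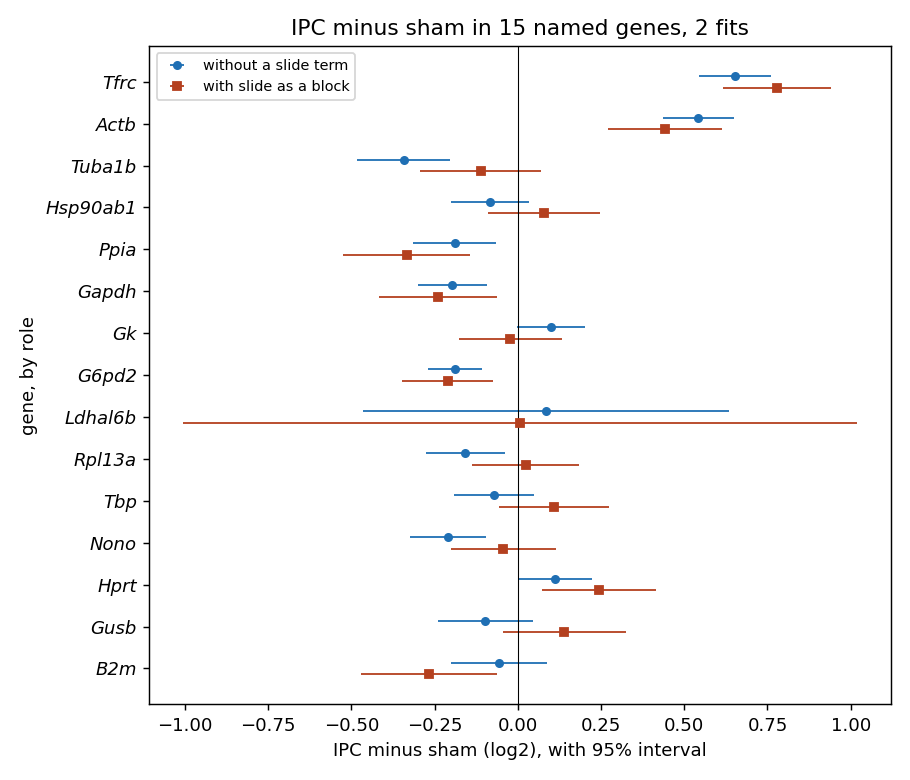
Difference of IPC minus sham in the 15 named genes (horizontal axis, log2) with its 95% interval, without a slide term (circles) and with slide as a block (squares). The intervals of Tfrc and Actb lie above 0 and those of Ppia, G6pd2 and Gapdh below 0 in both fits. Tuba1b, Nono and Rpl13a move towards 0 with the block. The intervals are not adjusted for the number of probes, and Gapdh did not pass with the block.

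The members differed little within a group. For 14 genes, all but Ldhal6b, the SD between arrays was 0.0223 to 0.0760 in IPC and 0.0258 to 0.0850 in sham. IPC array 3, the array with the highest 75th percentile, was the lowest of the IPC arrays in 12 of the 15 genes. Among sham arrays, array 1 was the lowest in 7 genes. The adjusted p of the slide term itself ran from 0.0508 (Gusb) to 0.915 (Ldhal6b) over the 15 genes, while 9.41% of all probes passed it.

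Other probes have IDs that the files do not pair with a gene, and of those well above background on all 10 IPC and sham arrays the ones with the largest rise and fall are given by ID. ASMM10P011110 was at 2.07, 1.78, 2.03, 1.82 and 2.07 in IPC and at -1.86, -1.76, -0.47, -0.82 and -0.57 in sham. It rose by 3.05 ± 0.240 (SE), 8.27-fold, with an adjusted p of 6.64e-07, and by 3.28 with slide as a block (adjusted p = 0.000317). Its I/R arrays, at 1.71 to 2.09, covered the same range as IPC. The sham arrays fell into a lower pair and a higher set of 3, all far below IPC.

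ASMM10P054515 had the largest fall. Its level was -2.12, -2.28, -1.19, -1.17 and -2.79 in IPC against 4.14, 4.02, 4.00, 3.95 and 3.93 in sham. The probe fell by 5.92 (SE 0.303), 60.4-fold, with an adjusted p of 1.20e-08, and the blocked difference was -6.79 (adjusted p = 3.68e-06). It was bright and even in sham and dim in every IPC array and every I/R array, the last at -3.27 to -1.99.

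Among probes that the array names as long intergenic RNAs (lincRNAs), mouselincRNA0133-_P1 had the largest rise by the same rule. It was at 1.73, 1.22, 1.55, 1.15 and 1.82 in IPC and at -0.15, -0.20, 0.82, 0.38 and 0.16 in sham, and the groups did not overlap. It rose by 1.29 ± 0.234 (SE), or 2.45-fold (adjusted p = 0.000825), and 1.92 with slide as a block (adjusted p = 0.00335). Its I/R arrays ranged from 0.77 to 2.00. The largest fall was that of mouselincRNA1011+_P1, by 1.29 (SE 0.143), 2.45-fold, with an adjusted p of 1.37e-05, against a blocked difference of -1.65 (adjusted p = 0.00044). Its IPC arrays were at -1.84, -2.02, -2.10, -1.84 and -2.07 and its sham arrays at -0.76, -0.45, -0.68, -1.07 and -0.44. Its I/R arrays ranged from -1.98 to -1.27.

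**Figure D4:**
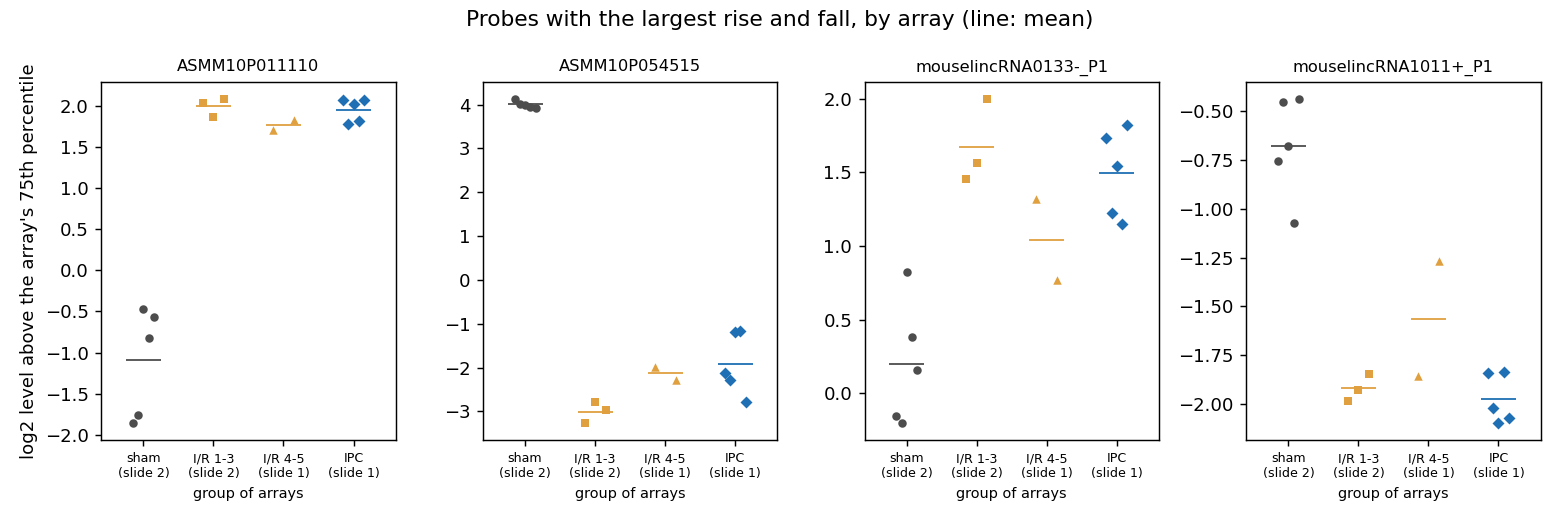
Level in each array of the 4 probes named by ID (vertical axes, log2 above the 75th percentile, each with its own range), by group and slide (horizontal axis). Points are arrays and lines are means. The IPC arrays are apart from the sham arrays in each panel, by the widest margin for ASMM10P054515.

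Of the lincRNA-named probes 77 of 436 tested passed (17.7%, beside 30.0% of all probes, a difference that was not tested), 49 higher and 28 lower. That balance turned with the processing. Median scaling gave 35 higher and 39 lower, and normexp background correction 39 and 65. The percentile over probes above background on all arrays gave 58 and 16, and the absence of a filter on low signal 58 and 429. Over all probes the same settings gave 2630 and 6999, 4106 and 7004, 6928 and 4276, and 4930 and 11048. In the blocked fit 22 were higher and 53 lower, beside 3848 and 3483 of all probes. In the same direction in both fits 18 and 15 passed, beside 2612 and 1968 of all probes. The median difference of the lincRNA-named probes turned from 0.07 to -0.28 with the block, while that of all probes went from -0.01 to -0.02. The blocked fit called 75 of the 436 lincRNA-named probes, beside 21.0% of all probes. It called 30 without I/R array 4 and 45 without I/R array 5. Calls shared by both fits made up 13.1% of all probes. Human-named probes numbered 243 (29 higher and 11 lower), mouse-named probes 161 (16 and 13) and exon-named probes 32 (4 and 4). They were dim, with a median level of -1.83 against -0.52 for all probes, and 436 of 1836 on the array passed the filter on low signal. Of the 11662 dimmest probes tested, with levels up to -1.54, 19.2% passed without the block, near the 17.7% of the lincRNA-named probes.

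Across all probes 10504 passed, 4775 higher and 5729 lower in IPC. Median scaling gave 2630 higher and 6999 lower, with the median of all probes at -0.10, and the percentile over probes above background on all arrays gave 6928 and 4276. Calls of 2-fold or more numbered 496 higher and 153 lower. The blocked fit had 420 and 632 such calls, and 240 and 94 were shared by both fits. Of the 10504 calls 4580 also passed with the block in the same direction, 2612 higher and 1968 lower. The blocked fit made 7331 calls, and 3637 without I/R array 4.

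Without a slide term the balance of the calls differed with signal. Among the 11662 dimmest probes 1513 were higher and 726 lower, and among the 11662 brightest 1417 were higher and 3187 lower. In the blocked fit the dimmest probes gave 729 higher and 599 lower and the brightest 1516 and 1853. The median difference was 0.08 among the dimmest and -0.08 among the brightest without the block, and -0.03 in both with it. The slide term, slide 1 minus slide 2, had a median of 0.09 among the dimmest and -0.08 among the brightest. The filter admits a dim probe detected only in the group where it is high: 344 probes were well above background on all IPC arrays and on no sham array, of which 11 had a bound of at least 2-fold. In the opposite sense there were 15, of which 6 had such a bound, and the highest bounds were at least 24.1-fold and at least 6.51-fold. The bound sets the bright mean against the higher of the dim signal and the lowest signal called above background. The brighter IPC slide stands beside these counts, and its part in them was not tested.

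**Figure D5:**
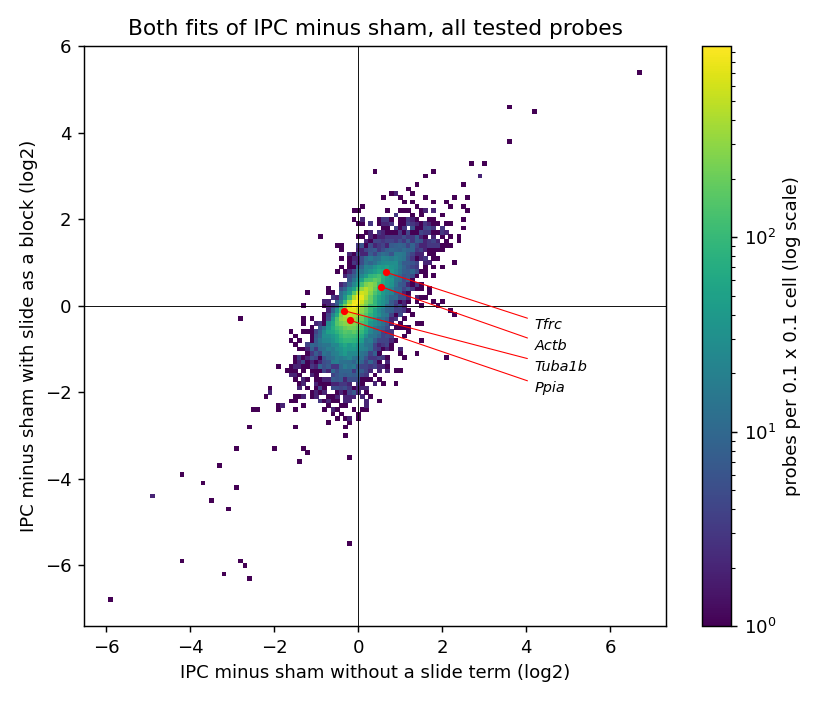
IPC minus sham without a slide term (horizontal axis) against the same difference with slide as a block (vertical axis), both log2, for the 34985 probes tested. Colour gives the number of probes per cell on a log scale, and 4 genes are marked in red. The largest falls and rises lie in the same quadrant of both fits, and the cloud is taller than wide. The median SE with the block was 1.67 times that without it.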

How the data were processed

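Deposited values were spot intensities of one-colour (Cy3) arrays written by Agilent Feature Extraction 11.0.1.1 on a grid of build mm9, per the file headers. The processed signal intensity is background-subtracted and detrended within the array by that software, per the file headers. For normalization between arrays, the sources used here give nothing.

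Control spots, negative-control probes and outlier spots were left out, and the log2 values of the spots of a probe were averaged (60915 probes). Each array's 75th percentile was subtracted. A probe entered the fit where 5 or more of the 15 arrays had it well above background, which held for 34985 (57.4%), and these were fitted with limma 3.58.1 in R 4.3.3, a mean per group, with Benjamini-Hochberg adjustment. Intervals are limma's and not adjusted. The number of arrays limits the precision. All 15 accessions matched a symbol of the RefSeq table for GRCm38.p6.

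Named probes, besides the 15 genes, are 1 unnamed and 1 lincRNA-named probe for each direction, those with the largest change among those above background on all 10 arrays, not overlapping and passing in both fits. The members and lists were chosen with earlier results of these data known. The 20 pairs of arrays within IPC and sham differed by SDs of 0.137 to 0.250 over 6216 bright probes, above the spot noise of 0.0675. Repeat arrays of 1 RNA could exceed that noise too, so this cannot show whether arrays share a mouse, and the arrays were kept separate as labelled.

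Alternatives covered normalization, background correction, filters, moderation, array weights, blocks and left-out arrays. For normexp (offset 50) the median spot signal stood in for the mean signal, which was not used here. Slide with the row of the array on it was added after the data were seen.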

Additional observations from a re-analysis of the deposited data

How the results depend on the processing

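Over 30 alternatives Tfrc (0.56 to 0.83, highest adjusted p 0.00214) and Actb (0.40 to 0.63, 0.0290) kept direction and call in each. The fall of G6pd2 was lost in 6 and that of Ppia in 8. For Gapdh, Tuba1b and Nono it was lost in 9, 9 and 8 (Nono also turned sign once). Rpl13a lost its call in 17 and turned sign in 7 others, so its fall passed in only 6 of 30. For the probes named by ID, passing follows in part from how they were chosen, as large changes called in both fits. The probes ASMM10P011110, ASMM10P054515 and mouselincRNA1011+_P1 passed in each (29 alternatives for ASMM10P054515, which the filter on all 15 arrays leaves out), and mouselincRNA0133-_P1 in 29 of 30 (1.93, adjusted p = 0.0549 with slide and row as blocks). The cause of the changes below was not tested.

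Probes called numbered 15978 without a filter (4930 higher and 11048 lower, of 60812 tested), 6389 with slide as a random block, 6086 with slide and replicate block and 1691 with slide and row as blocks. Named genes called numbered 5 with slide as a fixed block, 5 with it as a random block, 2 with slide and replicate block and 2 with slide and row. LincRNA-named probes called numbered 487 without a filter (58 higher and 429 lower), 47 with the random block and 14 with slide and row. Leaving out 1 array gave 9090 to 9880 probes, 6 to 8 genes and 62 to 79 lincRNA-named probes. With slide as a block and 1 I/R array left out these were 3637 to 6761, 3 to 4 and 30 to 71. The slide term itself was called for 3291 probes, and for 14 to 2665 without 1 I/R array, the 14 being without array 4.

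Differences that turned sign with slide as a block were those of Gk (-0.0225), Rpl13a (0.0233), Hsp90ab1 (0.0787), Tbp (0.11) and Gusb (0.14). With slide and replicate block they were Gk (-0.0781), Rpl13a (0.0645), Hsp90ab1 (0.13), Tbp (0.14) and Gusb (0.21), and with slide and row Ldhal6b (-0.31), Rpl13a (0.0099), Hsp90ab1 (0.0129), Gusb (0.0633) and Tbp (0.0932). The random block gave Tbp (0.0223), Gusb (0.0253) and Hsp90ab1 (0.0007). Scaling turned B2m (0.0137 with the percentile over detected probes, 0.0087 with normexp), Ldhal6b (-0.0078 under median scaling, -0.0285 with normexp) and Hsp90ab1 (0.0251 under quantile normalization). Over all fits with 1 array left out, with or without the block, the ranges were -0.0825 to 0.12 for Gk, -0.22 to 0.30 for Ldhal6b, -0.18 to 0.0859 for Rpl13a, -0.11 to 0.15 for Hsp90ab1, -0.0887 to 0.18 for Tbp, -0.12 to 0.21 for Gusb and -0.23 to 0.0122 for Nono.

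IPC and sham share replicate numbers, but only 2 of 5 same-numbered pairs had deviations that correlated above 0.1 (-0.296 to 0.512) and 1 IPC array correlated best with its own number, so the numbers were not taken as pairs. The replicate block alone called 9057 probes, 4212 higher and 4845 lower.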
